A study of Homo sapiens with 8 samples.

Results

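The genes described here are 41 members of the ATF4 and unfolded protein response programme, picked by symbol. They came from a list of names, and that list was chosen with earlier results of these data known. Counts of members set against all genes are therefore descriptions only. Only probe sets with a single symbol in the platform's probe table counted, and the one brightest on average over the 8 arrays stood for its gene. All 41 members were found among 18132 genes, through 120 probe sets. A signal above 5.36, the median of the whole table, was reached in 2 or more arrays by 36 members, which were tested among 10527 genes. The other 5, DDIT3, NUPR1, ALDH1L2, VLDLR and ERN1, lay at or below that floor in 7 or 8 of the 8 arrays and were too dim to test.

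The arrays measured RNA of H3122, a human lung adenocarcinoma line that carries the EML4-ALK fusion kinase, and of 2 derivatives resistant to the ALK inhibitor ceritinib, H3122-LR2 and H3122-LR3. Parental and LR2 cells were measured untreated, after 6 h with 1000 nM crizotinib and after 6 h with 1000 nM ceritinib, and LR3 cells untreated and with ceritinib only. All groups share the fusion kinase and serum-containing RPMI medium, and each of the 8 conditions had 1 array without a replicate. Whether a resistant line is 1 clone, and whether it was kept in drug before the untreated array, was not given in the sources used here.

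When unfolded proteins build up in the endoplasmic reticulum (ER), the sensors PERK, IRE1 and ATF6 start a transcription programme that raises chaperones and degradation factors. PERK and the amino acid sensor GCN2 phosphorylate eIF2, which lowers protein synthesis in general and raises translation of the ATF4 mRNA. The ATF4 protein then induces genes of amino acid synthesis, transport and tRNA charging together with feedback regulators, and growth factor signalling through mTORC1 can raise it as well. ATF4 output is set largely by translation and XBP1 activity by splicing, and neither is read by an array of RNA levels.

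Members differ in the elements of their promoters, and 3 promoters are shown because they belong to members that the comparisons turn on or that stand for a branch of the response. RefSeq promoters (GRCh38.p14, 250 bases before to 50 after the start) were at hand for 37 of the 41 members and not for NUPR1, PSPH, SHMT2 and ALDH1L2. The ER stress element, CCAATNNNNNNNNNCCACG, was found on either strand in 5 of these 37 promoters (13.5%) and in 22 of 27305 promoters in all (0.0806%). Those members were XBP1, HSPA5, HSP90B1 (with 2 copies), CALR and CRELD2. The C/EBP-ATF element, TGATGCAA, was in 2 member promoters (5.41%), those of CHAC1 and HERPUD1, against 0.923% of all. The unfolded protein response element, TGACGTGG, was in 1 (2.7%), that of HYOU1, against 0.795% of all, and its reverse strand shares the letters CCACG with the ER stress element. Such matches describe letters, and the absence of a match says nothing about binding.

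The bases before the start site are printed 5′ to 3′ on the gene's strand, with the matched letters in capitals. The CHAC1 window is chr15:40953221-40953470 on the plus strand, with the C/EBP-ATF element on the reverse strand at -209 to -202. The HERPUD1 window is chr16:56931892-56932141 on the plus strand, with the same element in the same orientation at -176 to -169. It also holds ATTGG, the reverse strand of CCAAT, close before CCACG (attgggccacg). That arrangement is unmarked because only the ER stress element with 9 bases between its parts was searched. The HSPA5 window is chr9:125241344-125241593 on the minus strand, with the ER stress element at -66 to -48. HSPA5 was added after its values were seen.
CHAC1: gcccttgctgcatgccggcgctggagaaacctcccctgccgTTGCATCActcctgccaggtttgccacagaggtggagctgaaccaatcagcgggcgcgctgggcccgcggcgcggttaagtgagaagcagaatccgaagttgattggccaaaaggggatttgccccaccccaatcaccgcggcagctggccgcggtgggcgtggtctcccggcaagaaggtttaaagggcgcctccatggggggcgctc
HERPUD1: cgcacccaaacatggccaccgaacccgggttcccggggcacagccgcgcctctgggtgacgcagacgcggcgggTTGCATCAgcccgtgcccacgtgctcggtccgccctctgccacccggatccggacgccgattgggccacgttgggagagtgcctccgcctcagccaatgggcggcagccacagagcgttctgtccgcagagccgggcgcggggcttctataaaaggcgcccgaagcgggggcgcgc
HSPA5: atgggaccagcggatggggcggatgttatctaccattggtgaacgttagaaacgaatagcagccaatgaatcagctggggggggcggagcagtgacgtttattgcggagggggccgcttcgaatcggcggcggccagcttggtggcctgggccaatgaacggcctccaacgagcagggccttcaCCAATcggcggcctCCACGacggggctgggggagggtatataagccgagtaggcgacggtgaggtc

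All 8 epithelial markers (EPCAM, KRT7, KRT8, KRT18, KRT19, CDH1, NKX2-1 and NAPSA) were above the floor in every array. Of 12 measured markers of leukocytes, endothelium and fibroblasts, 9 were at or below the floor in all arrays and 1, CDH5, was above it in all. The mean log2 signal of those 12 markers lay between 4.28 and 4.49 across arrays. The median of all probe sets was 5.31 to 5.36, except for 5.46 in the LR2 ceritinib array, whose genes lay a median of 0.10 above the untreated LR2 array. In such bulk RNA a smaller share of cells and less RNA per cell cannot be told apart. All values below are log2 signals or log2 differences, and signals of different genes are not compared because probe sets differ in brightness.

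The first question was how the members moved when ALK was inhibited. In the single parental arrays, TRIB3, CHAC1 and other ATF4 target genes had lower signals with either inhibitor than without, by up to 1.61 for CHAC1. On their brightest probe sets the ER chaperones had medians near 0, and other probe sets of some, such as HSPA5, were lower by more. No member passed the test of the parental response, given below, and the calls come from the crizotinib comparison over both lines. Of the 36 tested members, 9 were at least 0.5 lower in both parental inhibitor arrays than in the untreated one, against 2.93% of all genes tested, and 0 were at least 0.5 higher in both, against 3.52% of all genes. The 9 were ATF3, CEBPG, TRIB3, SESN2, CHAC1, PSAT1, PSPH, ASNS and STC2. The step of 0.5 was chosen after the values were seen, and both differences share the untreated array.

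**Figure D1:**
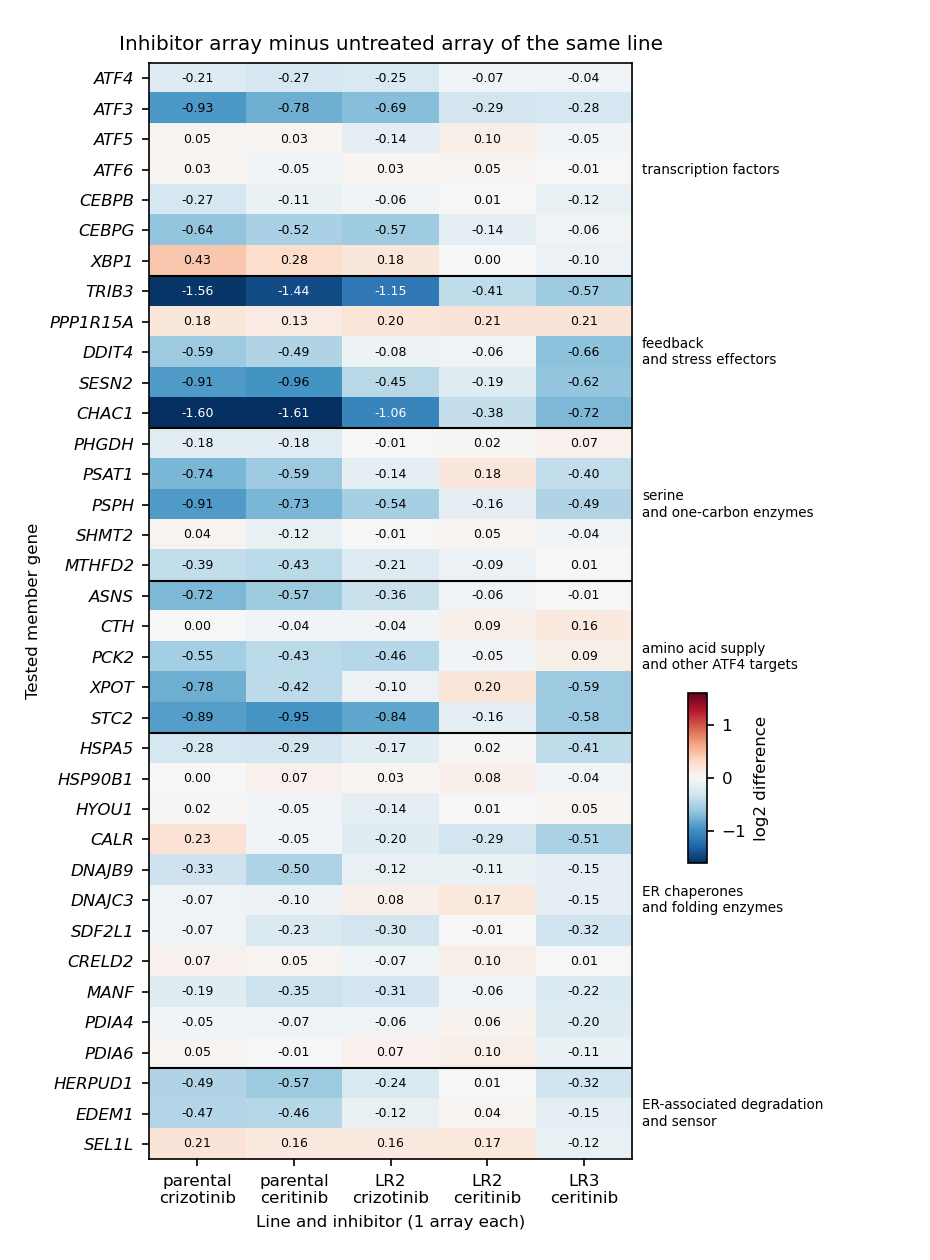
Log2 difference of each inhibitor array from the untreated array of the same line (columns, 1 array each) for the 36 tested members (rows, grouped by role), blue for lower and red for higher. CHAC1 was at -1.60 and -1.61 in the parental arrays and at -0.38 in the LR2 ceritinib array, and no member of the LR2 ceritinib column was 0.5 or more below 0.

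TRIB3, a pseudokinase that feeds back on ATF4 and binds AKT, had a signal of 10.21 in untreated parental cells, 8.65 with crizotinib and 8.77 with ceritinib. In LR2 it was 9.76 untreated, 8.61 with crizotinib and 9.35 with ceritinib, and in LR3 it was 9.98 untreated and 9.41 with ceritinib. The 3 untreated arrays were above every inhibitor array, and the lowest 3 were the crizotinib arrays and the parental ceritinib array. CHAC1, which degrades glutathione, had a signal of 7.88, 6.28 and 6.27 in parental cells (untreated, crizotinib, ceritinib), of 7.11, 6.05 and 6.73 in LR2, and of 7.31 and 6.59 in LR3 (untreated, ceritinib). Its order was alike, with the 3 untreated arrays on top and the LR2 crizotinib array lowest.

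STC2, a secreted glycoprotein induced by ER stress, had a signal of 8.61, 7.72 and 7.66 in parental cells, 8.11, 7.27 and 7.95 in LR2, and 7.94 and 7.36 in LR3. The LR2 ceritinib array therefore stood 0.16 below its untreated array, and the other 4 inhibitor arrays 0.58 to 0.95 below theirs. ATF3, a stress-induced repressor and activator of the same family, had a signal of 5.79, 4.86 and 5.01 in parental cells, 5.64, 4.95 and 5.35 in LR2, and 5.95 and 5.67 in LR3. It was above the floor in 4 of the 8 arrays, so its falls end near background.

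Across parental and LR2 cells, crizotinib lowered 6 of the 36 tested members in an additive model of line and agent (limma, p adjusted by Benjamini-Hochberg across 10527 genes, threshold 0.05) and raised 0. Of all genes 3.76% were called, 0.94% lower and 2.82% higher. TRIB3 fell by 1.30 ± 0.20 (SE), or 2.46-fold (lower in 2 of 2 matched arrays, adjusted p = 0.0298). CHAC1 fell by 1.28 ± 0.23 or 2.44-fold (adjusted p = 0.0353), and STC2 by 0.87 ± 0.17 (adjusted p = 0.0394). ATF3 fell by 0.77 ± 0.12 (adjusted p = 0.0305), the serine phosphatase PSPH by 0.73 ± 0.12 (adjusted p = 0.0338) and CEBPG, a partner of ATF4 on DNA, by 0.56 ± 0.11 (adjusted p = 0.0429). Each was lower in 2 of 2 matched arrays. SESN2, a leucine sensor and mTORC1 inhibitor, missed the threshold at -0.69 ± 0.15 (adjusted p = 0.0502). None of the 6 calls held without the untreated or the crizotinib array of parental or of LR2 cells, where the model called 0 genes of all, and 10 members were called without the parental ceritinib array. The share of all genes called without the parental ceritinib array is not given here. Limma's p-values in this comparison measure only how single arrays vary between lines, since nothing was replicated.

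**Figure D2:**
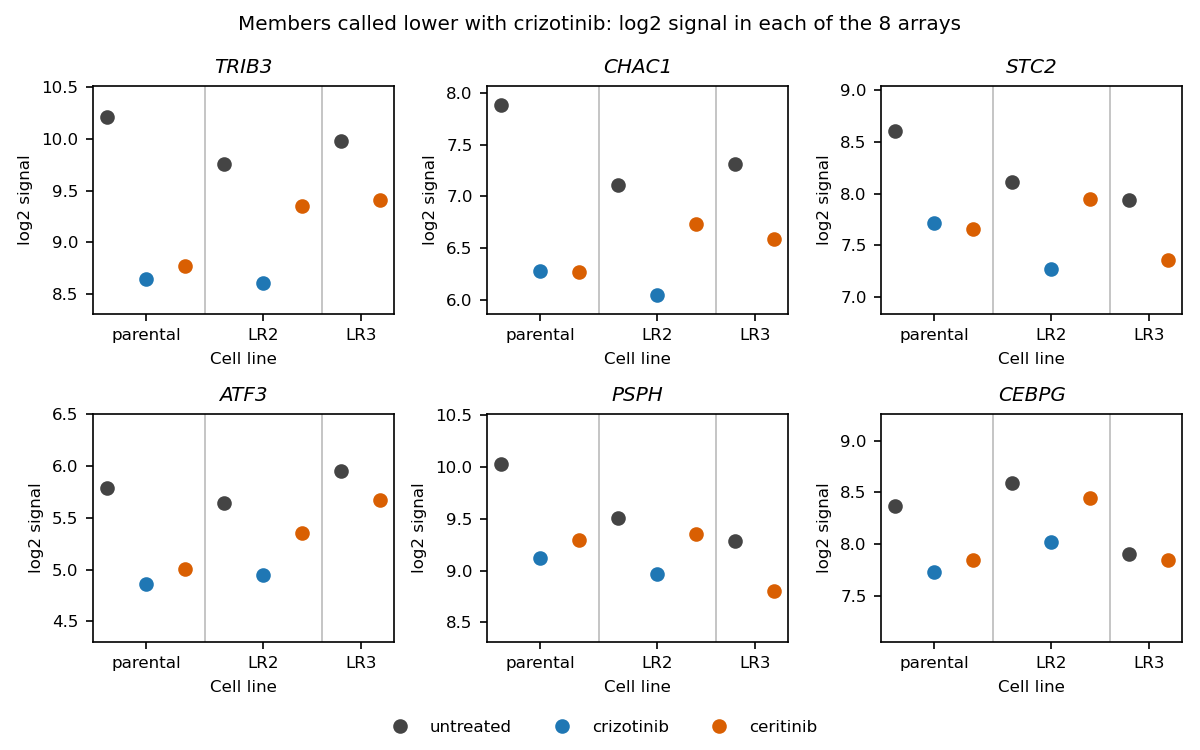
Log2 signal (vertical axis, of equal span in all panels) in each of the 8 arrays for the 6 members called lower with crizotinib, by cell line, with 1 point per array and colours for agent. In LR2 cells the ceritinib point of each gene lies between the crizotinib and the untreated point.

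With ceritinib the additive model over all 3 lines called 0 members and 0 genes of all (background 0%), while limma's unadjusted p was under 0.05 for 14 members and 2017 genes. That model fits 1 ceritinib effect to all 3 lines, and their single arrays differed. At least 2-fold higher and lower were 64 and 95 genes in parental cells, 2 and 1 in LR2, and 4 and 0 in LR3. The absence of calls therefore does not mean that ceritinib had no effect in parental cells. TRIB3 was at -0.81 ± 0.17 (adjusted p = 0.0822), CHAC1 at -0.90 ± 0.19 (adjusted p = 0.083) and SESN2 at -0.59 ± 0.13 (adjusted p = 0.0871), each lower in 3 of 3 matched arrays. When the 2 inhibitors of a line counted as 1 condition, limma called 0 members in parental, LR2 or LR3 cells, and 0 genes of all in each (background 0%). At an unadjusted p under 0.05 that model had 17 members in parental cells, 3 in LR2 and 5 in LR3, against 1849, 1015 and 499 genes of all.

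Grouped by role, the feedback and stress effectors had the lowest medians in parental cells. Their 5 members had a median of -0.91 with crizotinib and -0.96 with ceritinib, against 0.04 and 0.02 for all genes tested. SESN2 was lower by 0.91 and 0.96, and DDIT4, an mTORC1 inhibitor induced by several stresses, by 0.59 and 0.49. PPP1R15A, the stress-induced subunit that directs a phosphatase to eIF2, went the other way in all 5 inhibitor arrays, by 0.13 to 0.21 higher, and was the only tested member to do so (22.1% of all genes did). Lower in all 5 inhibitor arrays were 13 of the 36, against 8.08% of all genes, among them ATF4, TRIB3, CHAC1, ASNS and the chaperones DNAJB9, SDF2L1 and MANF.

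The serine and one-carbon enzymes did not move as a block. PSPH, which completes serine synthesis, was 0.91 and 0.73 lower in the parental arrays with crizotinib and ceritinib, and PSAT1, the transaminase before it, 0.74 and 0.59 lower. PSAT1 signal was 11.44, 10.70 and 10.85 in parental cells, 11.05, 10.91 and 11.23 in LR2, and 10.95 and 10.55 in LR3, and its 8 probe sets had the same sign in the crizotinib comparison. MTHFD2, a mitochondrial folate enzyme, was 0.39 and 0.43 lower. PHGDH, the first enzyme of the same serine route, was only 0.18 lower with each inhibitor, and SHMT2 was 0.04 higher and 0.12 lower.

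Among the other amino acid genes, ASNS, which makes asparagine, was 0.72 and 0.57 lower in parental cells, the tRNA exporter XPOT 0.78 and 0.42 lower, and the mitochondrial gluconeogenic enzyme PCK2 0.55 and 0.43 lower. None of the 3 was called with crizotinib (adjusted p = 0.0728, 0.124 and 0.0721). CTH, of transsulfuration, differed by 0.00 and -0.04.

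ATF4 RNA differed little between arrays. Its signal was 12.68, 12.47 and 12.41 in parental cells (untreated, crizotinib, ceritinib), 12.71, 12.46 and 12.64 in LR2, and 12.70 and 12.66 in LR3. All 5 inhibitor arrays were below the untreated array of their line, by 0.04 to 0.27, and the crizotinib difference was not called (-0.21 ± 0.09, adjusted p = 0.217). Its single probe set carries a suffix for possible cross-hybridization, as do all probe sets of DDIT3, CEBPB, PPP1R15A, PSPH and DNAJB9. A run without such probe sets could therefore not check the calls of these genes. XBP1, the factor spliced by IRE1, ran the other way in parental cells, with 11.59 untreated, 12.02 with crizotinib and 11.87 with ceritinib. It was 11.77, 11.95 and 11.77 in LR2 and 11.90 and 11.80 in LR3, and the crizotinib difference was not called (0.26 ± 0.10, adjusted p = 0.172).

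The 11 ER chaperones and folding enzymes had medians of -0.05 and -0.07 in the parental arrays and -0.12, 0.02 and -0.15 in LR2 with crizotinib, LR2 with ceritinib and LR3 with ceritinib. The median of all genes tested was 0.10 in LR2 with ceritinib and 0.01 to 0.04 in the other inhibitor arrays. HSPA5, the chaperone BiP that holds the ER sensors inactive, had a signal of 12.19, 11.91 and 11.90 in parental cells, 11.85, 11.68 and 11.87 in LR2, and 12.36 and 11.95 in LR3. The parental and LR3 untreated arrays were its highest, and the crizotinib difference was not called (-0.27 ± 0.11, adjusted p = 0.178). The 5 other HSPA5 probe sets were lower with crizotinib by more, at -0.40 to -0.46. Both other probe sets of DNAJC3 were at -0.23, against -0.03 for the brightest, and both others of PDIA6 were at 0.02. Differences of these other probe sets were not tested. HSP90B1, the ER form of HSP90, differed from untreated by at most 0.08 in any inhibitor array on its brightest probe set. Its 6 other probe sets had the opposite sign for ceritinib over the 3 lines, and one of them went from 11.49 to 11.07 with crizotinib in parental cells and from 11.27 to 10.96 with ceritinib in LR3. None of the 11 was called with crizotinib. Of the degradation genes, HERPUD1, a membrane protein of the ER ubiquitin ligase complex, was 0.49 and 0.57 lower in parental cells and the mannosidase-like EDEM1 0.47 and 0.46 lower, while SEL1L, an adaptor of the ligase HRD1, was 0.21 and 0.16 higher.

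The inhibitor response could also be set side by side between lines. Lower by at least 0.5 with crizotinib in LR2 were 6 members (ATF3, CEBPG, TRIB3, CHAC1, PSPH and STC2), against 3.39% of all genes. With ceritinib 0 members were that much lower in LR2, against 0.209% of all genes, and 7 were in LR3 (TRIB3, DDIT4, SESN2, CHAC1, XPOT, STC2 and CALR), against 0.446%. The other CALR probe set, also above the floor, went only from 6.52 to 6.34 in LR3. At least 0.5 higher were 0 members in each of the 3 arrays, against 3.55% of all genes in LR2 with crizotinib, 1.86% in LR2 with ceritinib and 0.94% in LR3. The medians of the 15 tested effectors, enzymes and amino acid genes were -0.72 and -0.49 in the parental arrays with crizotinib and ceritinib, -0.21 with crizotinib in LR2, and -0.06 and -0.40 with ceritinib in LR2 and LR3. Medians of all genes tested were 0.04, 0.02, 0.01, 0.10 and 0.01 in the same order. The LR2 ceritinib median of the 15 thus includes a shift of the whole array.

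The difference of the response itself, LR2 minus parental, was not called for any member (0 of all genes, background 0%, while limma's unadjusted p was under 0.05 for 4 members and 251 genes). CHAC1 differed by 0.88 ± 0.38 and SESN2 by 0.61 ± 0.19 (adjusted p = 0.998 for each). For LR3 minus parental 0 members and 0 genes were called as well, with 3 members and 505 genes at an unadjusted p under 0.05. ASNS differed by 0.64 ± 0.24 there (adjusted p = 0.91) and CALR, a lectin chaperone, by -0.60 ± 0.22. On the other CALR probe set the difference was -0.125. A difference between lines in the response was therefore not shown for a single gene by this model, which treats 2 drugs as replicates.

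Ceritinib and crizotinib are ATP-competitive kinase inhibitors of different scaffolds, given here at 1 dose and time. In the LR2 arrays 34 of 36 members were higher with ceritinib than with crizotinib, against 70.4% of all genes. Counted from the median difference of all genes, 0.09, it was 23 of 36 members, against 47.5% of all genes. In LR2 the largest such differences were those of TRIB3 (9.35 against 8.61), CHAC1 (6.73 against 6.05) and STC2 (7.95 against 7.27). In parental cells 12 of 36 were higher with ceritinib, against 39.2% of all genes. The additive comparison of the 2 drugs, fitted to all 8 arrays, called 0 members and 0 genes (background 0%, limma's unadjusted p under 0.05 for 4 members and 637 genes). TRIB3 was at 0.49 ± 0.20 and CEBPG at 0.32 ± 0.11 in that comparison (adjusted p = 0.791 and 0.771). Without the parental ceritinib array 6 members were called higher with ceritinib, a comparison then carried by the LR2 arrays. The share of all genes called in that run is not given here, so this count has no background beside it.

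The next question was how the members differed between lines. LR2 cells had less DDIT4 and PHGDH RNA than parental cells and more CEBPG. Of the 36 tested members 5 were lower and 1 higher in LR2, where 22.5% of all genes were called, 9.68% lower and 12.8% higher, so 6 of 36 is no more than that share. All 3 LR2 arrays were below all 3 parental arrays for 8 members, against 13.8% of all genes, and above them for 2, CRELD2 and PDIA6, against 18.1%. The median of the tested members was -0.07, against 0.02 for all genes.

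DDIT4 had a signal of 10.83, 10.24 and 10.34 in parental cells (untreated, crizotinib, ceritinib), 9.83, 9.75 and 9.77 in LR2, and 10.41 and 9.75 in LR3. All LR2 arrays were below all parental arrays, and LR2 levels varied little with the agent. DDIT4 was lower in LR2 by 0.69 ± 0.12 or 1.61-fold (lower in 3 of 3 matched arrays, adjusted p = 0.00621). PHGDH had a signal of 9.25, 9.07 and 9.07 in parental cells, 8.64, 8.63 and 8.66 in LR2, and 8.12 and 8.19 in LR3. The 3 lines did not overlap, and the agent made little difference within any of them. PHGDH was lower in LR2 by 0.49 ± 0.08 or 1.40-fold (3 of 3 matched arrays, adjusted p = 0.00378).

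SEL1L had a signal of 9.10, 9.31 and 9.26 in parental cells, 8.72, 8.88 and 8.89 in LR2, and 8.84 and 8.72 in LR3. The parental arrays were above all resistant arrays, and SEL1L fell by 0.39 ± 0.08 in LR2 (3 of 3 matched arrays, adjusted p = 0.0117). CEBPG had a signal of 8.37, 7.73 and 7.85 in parental cells, 8.59, 8.02 and 8.45 in LR2, and 7.91 and 7.85 in LR3. It was higher in LR2 in each matched array, by 0.37 ± 0.10 (adjusted p = 0.0305), although the lines overlap.

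The remaining LR2 calls were small. ATF5, a relative of ATF4, had a signal of 6.65, 6.70 and 6.68 in parental cells, 6.42, 6.28 and 6.52 in LR2, and 6.59 and 6.54 in LR3, and was lower in LR2 by 0.27 ± 0.08 (adjusted p = 0.0407). SHMT2, the mitochondrial serine hydroxymethyltransferase, had a signal of 10.28, 10.32 and 10.16 in parental cells, 10.00, 9.99 and 10.05 in LR2, and 10.29 and 10.25 in LR3. It was lower in LR2 by 0.24 ± 0.07 (adjusted p = 0.0479). The ATF5 call was lost in 12 of 17 alternatives and that of SHMT2 in 11 of 17, while DDIT4 and PHGDH kept theirs in 17 of 17. Among other transcription factors ATF4 (0.08 ± 0.08, adjusted p = 0.485), ATF3 (0.09 ± 0.10, adjusted p = 0.570), ATF6 (-0.15 ± 0.07, adjusted p = 0.152), CEBPB (-0.02 ± 0.07) and XBP1 (0.00 ± 0.09) were not called. Without the crizotinib array of parental or of LR2 cells 2 members were called in LR2, without the untreated LR2 array 3, and with no agent term 3. How many of all genes were called in these runs is not given here, so a loss particular to the members cannot be read from them.

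**Figure D3:**
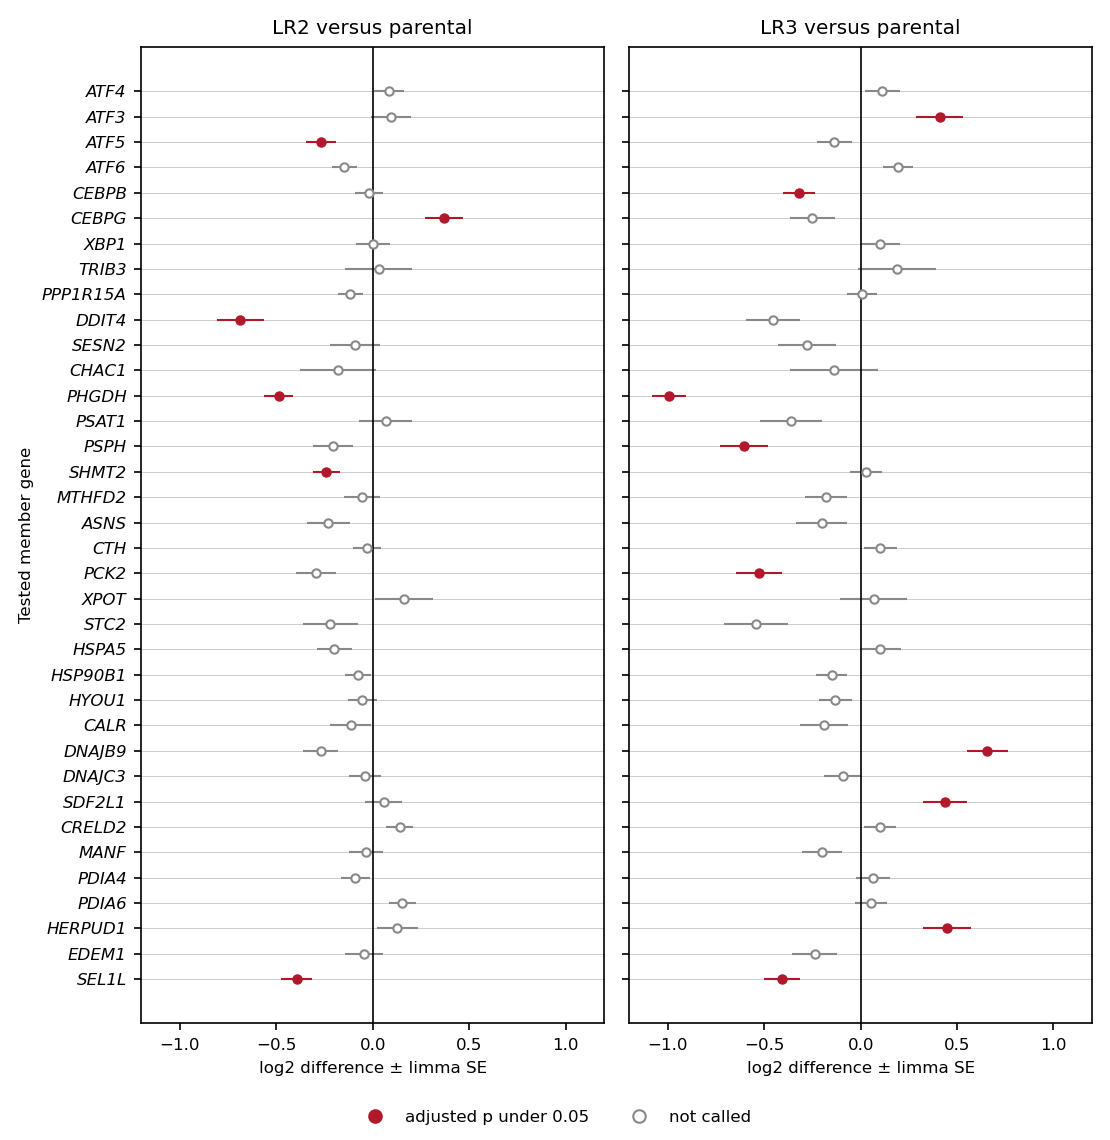
Log2 difference from parental cells with limma standard errors (horizontal axis) for the 36 tested members (rows), LR2 on the left and LR3 on the right, with red points for an adjusted p under 0.05. PHGDH and SEL1L are called lower in both panels, and DNAJB9 is called higher in the LR3 panel.

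LR3 cells had less PHGDH RNA than parental cells and more of the ER genes DNAJB9, HERPUD1 and SDF2L1. Of the 36 members 4 were higher and 5 lower in LR3, with 21.6% of all genes called, 9.53% higher and 12.1% lower, so 9 of 36 is near the background. Both LR3 arrays were above all parental arrays for 6 members, against 24.7% of all genes, and below them for 7, against 23.1%. The median of tested members was -0.13, against 0.01 for all genes. PHGDH was lower by 0.99 ± 0.09 or 1.99-fold (lower in 2 of 2 matched arrays, adjusted p = 0.000437). PSPH had a signal of 10.03, 9.12 and 9.30 in parental cells, 9.51, 8.97 and 9.35 in LR2, and 9.29 and 8.80 in LR3, and was lower in LR3 by 0.61 ± 0.12 (2 of 2 matched arrays, adjusted p = 0.0128). The lines overlap in PSPH, and the difference shows between arrays of the same agent.

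PCK2 had a signal of 8.97, 8.42 and 8.54 in parental cells, 8.52, 8.06 and 8.47 in LR2, and 8.20 and 8.29 in LR3. Both LR3 arrays were below all parental arrays, and PCK2 was lower in LR3 by 0.53 ± 0.12 (adjusted p = 0.019). SEL1L was lower in LR3 by 0.41 ± 0.09 (adjusted p = 0.02) and CEBPB, a partner of ATF4 and CHOP, by 0.32 ± 0.08 (adjusted p = 0.0317). CEBPB had a signal of 10.29, 10.02 and 10.18 in parental cells, 10.16, 10.10 and 10.17 in LR2, and 9.95 and 9.83 in LR3, its lowest arrays.

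DNAJB9, a co-chaperone of BiP that restrains IRE1, had a signal of 7.86, 7.53 and 7.36 in parental cells, 7.39, 7.27 and 7.28 in LR2, and 8.34 and 8.19 in LR3. The LR3 arrays were above all others. DNAJB9 was higher in LR3 by 0.66 ± 0.10 or 1.58-fold (2 of 2 matched arrays, adjusted p = 0.00482). Of its 3 probe sets, a second one above the floor had the opposite sign for LR3 against LR2.

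HERPUD1 had a signal of 9.20, 8.71 and 8.63 in parental cells, 9.05, 8.81 and 9.06 in LR2, and 9.53 and 9.21 in LR3, and was higher in LR3 by 0.45 ± 0.12 (adjusted p = 0.0373). SDF2L1, an ER chaperone cofactor, had a signal of 9.82, 9.75 and 9.59 in parental cells, 9.88, 9.58 and 9.87 in LR2, and 10.36 and 10.04 in LR3, and was higher by 0.44 ± 0.11 (adjusted p = 0.0304). For both genes the LR3 arrays were above all parental arrays. ATF3 was higher in LR3 by 0.41 ± 0.12 (adjusted p = 0.0485), a call lost in 11 of 16 alternatives, and that of HERPUD1 was lost in 8 of 17. Untreated, ATF3 signal was 5.95 in LR3 against 5.79 in parental cells. With ceritinib it was 5.67 against 5.01, where the parental value is below the floor. The ATF3 difference thus lies mostly in the ceritinib arrays, and the call does not separate line from response.

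ATF4 (0.11 ± 0.09, adjusted p = 0.421), ATF5 (-0.14 ± 0.09), ATF6 (0.19 ± 0.08, adjusted p = 0.118), CEBPG (-0.25 ± 0.11, adjusted p = 0.159) and XBP1 (0.10 ± 0.10) were not called in LR3. DDIT4 (-0.46 ± 0.14, adjusted p = 0.0538) and STC2 (-0.54 ± 0.17, adjusted p = 0.0534) just missed the threshold. Without the LR3 ceritinib array 2 members were called in LR3, without the untreated LR3 array 3, without the untreated parental array or either crizotinib array 5, and with no agent term 4. The 2 matched pairs alone called 0 of 36, with 11 at an unadjusted p under 0.05 in limma. For all genes the shares in these runs are not given here, so the counts have no background and say nothing particular to the members.

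**Figure D4:**
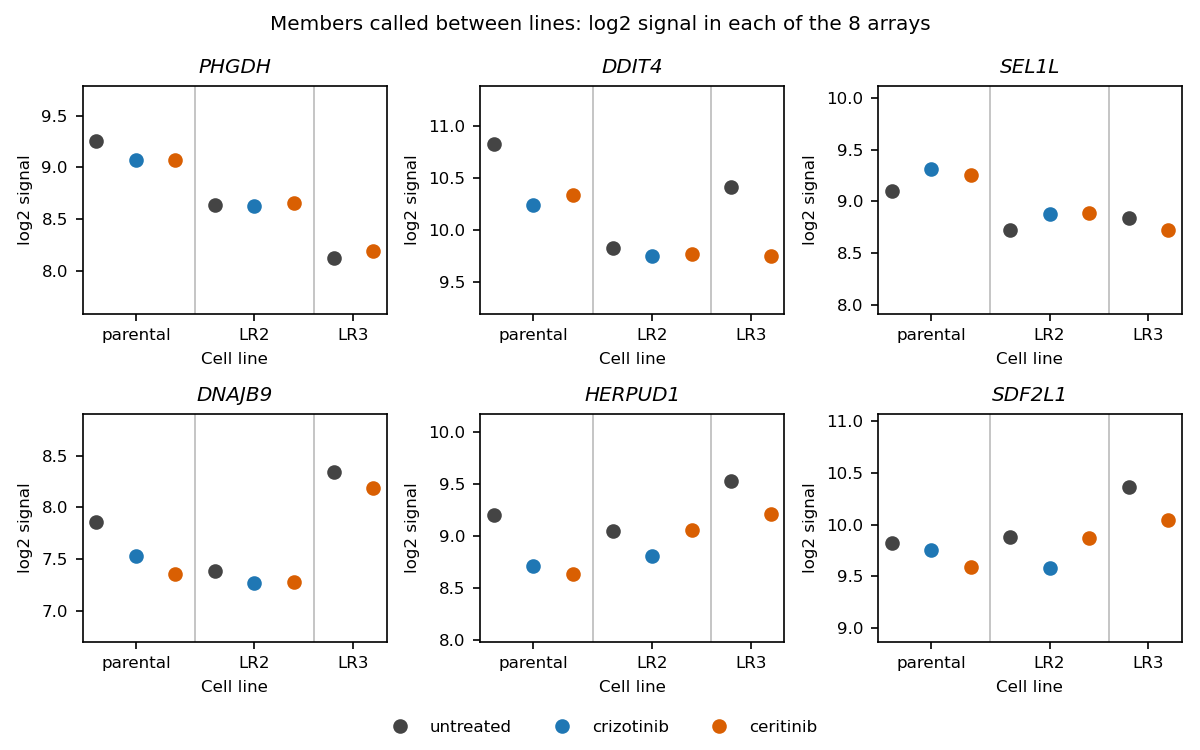
Log2 signal (vertical axis, of equal span in all panels) in each of the 8 arrays for 6 members called between lines, by cell line, with 1 point per array and colours for agent. PHGDH signal was 9.07 to 9.25 in parental cells, 8.63 to 8.66 in LR2 and 8.12 to 8.19 in LR3, and DNAJB9 was highest in the LR3 arrays.

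Set directly against LR2, LR3 cells had 2 members higher and 3 lower of 36, with 19.6% of all genes called, 7.29% higher and 12.3% lower. DNAJB9 was higher in LR3 by 0.93 ± 0.10 or 1.90-fold (2 of 2 matched arrays, adjusted p = 0.00116). ATF6, the ER-resident factor that is cleaved on stress, had a signal of 7.06, 7.09 and 7.01 in parental cells, 6.88, 6.91 and 6.93 in LR2, and 7.24 and 7.23 in LR3. On this brightest probe set the 3 lines did not overlap in ATF6, and it was higher in LR3 than in LR2 by 0.34 ± 0.08 (adjusted p = 0.0198). On its 2 other probe sets that difference was 0.11 and 0.26, and the parental and LR3 arrays overlapped. CEBPG was lower in LR3 by 0.62 ± 0.11 (adjusted p = 0.00830), PHGDH by 0.51 ± 0.09 (adjusted p = 0.00662) and CEBPB by 0.30 ± 0.08 (adjusted p = 0.0418). The CEBPB call was lost in 11 of 16 alternatives. ATF4 (0.03 ± 0.09), ATF3 (0.32 ± 0.12, adjusted p = 0.112), ATF5 (0.13 ± 0.09) and XBP1 (0.10 ± 0.10) were not called. Without the untreated LR3 array 1 member was called, without the LR3 ceritinib array 3 and without the parental ceritinib array 10. Centring each array moved the calls to 6 higher and 2 lower. Shares of all genes called in these runs are not given here.

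Between untreated arrays alone, more members were lower than higher in each resistant line than in parental cells. The untreated LR2 array was below the untreated parental array for 29 of 36 members, against 47.4% of all genes, and for 15 of the 15 effectors, enzymes and amino acid genes. The untreated LR3 array was below it for 21 of 36, against 46.4% of all genes, and for 12 of these 15. The untreated parental array was the highest of all 8 for 15 of 36 members, against 9.65% of all genes. CHAC1, for one, had 7.88 in untreated parental cells, 7.11 in LR2 and 7.31 in LR3. These counts rest on 1 untreated parental array, which had no replicate.

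The dim members gave only signals near the floor. DDIT3, which encodes the apoptosis-linked factor CHOP, had a signal of 5.44, 5.01 and 5.21 in parental cells, 4.89, 5.20 and 5.17 in LR2, and 5.27 and 5.23 in LR3. Only the untreated parental array was above the floor. NUPR1, a stress-induced chromatin protein, was at 4.01 to 4.37, the mitochondrial folate enzyme ALDH1L2 at 3.77 to 4.30, the lipoprotein receptor VLDLR at 3.71 to 4.45 and the sensor ERN1 (IRE1) at 4.13 to 4.61.

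Other genes of the same pathways, taken from a list of 101 names in 8 groups, were followed through 90 tested genes. All 13 cytosolic aminoacyl-tRNA synthetases, which charge tRNAs, were lower in both parental inhibitor arrays and in the LR2 crizotinib array. Their medians were -0.36 and -0.28 with crizotinib and ceritinib in parental cells, -0.23 and 0.06 in LR2, and -0.06 with ceritinib in LR3. All genes tested had a median of 0.10 in LR2 with ceritinib. All 9 tested amino acid transporters were lower in both parental arrays as well, with medians of -0.32 and -0.31. Of 10527 genes tested, 4328 and 4619 were lower in the single parental arrays with crizotinib and ceritinib, and 4924 in LR2 with crizotinib. The share lower in these arrays together is not given, and both parental differences share 1 untreated array. SLC7A11, the cystine carrier, was 0.76 and 0.75 lower in the parental arrays, 0.55 lower with crizotinib in LR2, and 0.10 and 0.12 lower with ceritinib in LR2 and LR3. GDF15, a secreted stress hormone, was 1.04 and 1.19 lower in the parental arrays. None of these synthetases and transporters, nor GDF15, was called with crizotinib in the additive model, where 45.2% of all genes were below 0.

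With crizotinib 2 of the 90 were called higher and 1 lower, against 3.76% of all genes. BBC3, the pro-apoptotic BH3-only protein PUMA, rose by 0.70 ± 0.10 (adjusted p = 0.0261) and the ATF6-cleaving protease MBTPS1 by 0.51 ± 0.10 (adjusted p = 0.0401), and JDP2, an AP-1 repressor, fell by 0.44 ± 0.09 (adjusted p = 0.042). BBC3 is thus a list member that ran against the ATF4 targets, by 0.50 to 0.84 higher in all 5 inhibitor arrays.

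Between lines, in LR2 5 of 90 were higher and 13 lower, in LR3 8 higher and 8 lower, and in LR3 against LR2 9 higher and 6 lower, where 22.5%, 21.6% and 19.6% of all genes were called. Higher were 12.8%, 9.53% and 7.29% of all genes, and lower 9.68%, 12.1% and 12.3%. Of 11 ER folding and redox genes 5 were lower and 0 higher in LR2, led by the ER oxidase ERO1A, which fell by 0.80 ± 0.08 (adjusted p = 0.000503), with FKBP14 at -0.49 ± 0.07 and HSPA13 at -0.47 ± 0.10. Of 11 degradation genes 3 were lower in LR2, UBXN4 by 0.51 ± 0.09, UBE2J1 by 0.50 ± 0.08 and DERL1 by 0.34 ± 0.08. In LR3 1 ER folding gene was higher and 3 were lower of 11, and 2 degradation genes, VCP and DERL2, were higher and 0 lower of 11. The tryptophanyl-tRNA synthetase WARS1 rose by 0.87 ± 0.10 in LR2 and was the only synthetase called there.

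The ER-bound factor CREB3L1 differed in opposite directions, by 0.75 ± 0.10 in LR2 (adjusted p = 0.00218) and by -0.40 ± 0.12 in LR3 (adjusted p = 0.0462), and LR3 minus LR2 was -1.15 ± 0.12 (adjusted p = 0.000777). CREB3L4 fell by 0.59 ± 0.07 in LR2, and ATF6B rose by 0.42 ± 0.10 in LR2 and 0.51 ± 0.11 in LR3. Among eIF2 kinases the heme-regulated EIF2AK1 fell by 0.28 ± 0.07 in LR2 and by 0.32 ± 0.08 in LR3. In LR3 the folate enzyme MTHFD1L fell by 0.65 ± 0.09 and JDP2 by 0.54 ± 0.09, while the proline enzyme PYCR1 rose by 0.49 ± 0.09 and the transporter SLC38A2 by 0.50 ± 0.11. No gene of the 12 tested for translocation and traffic was called in LR2 or LR3 against parental cells.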

How the data were processed

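RNA of 3 cell lines was measured on 8 single-colour arrays. The labels' protocols name an RNeasy kit for extraction and a 3' IVT kit for labelling. Deposited values were on a log2 scale, as signals per probe set, made by the authors with RMA per the submitters' processing notes. Which RMA program was used, and on which arrays, is not given in the sources used here. No further normalization was applied.

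The table held 49395 probe sets, 102 of them controls, and 44988 others had 1 symbol in the probe table. Models were fitted with limma 3.58.1 in R 4.3.3 on 10527 genes above 5.36, the 50th percentile of all values, in at least 2 arrays. The additive model of line and agent had 3 residual degrees of freedom and 4.99 prior ones. The model of line by inhibitor or none, with both inhibitors as 1 condition, had 2 and 3.43. A call was an adjusted p (Benjamini-Hochberg, across the 10527 genes) below 0.05. The scripts were tested on simulated data. RMA compresses differences near background, and 8 arrays limit the precision.

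The members and lists were chosen with earlier results of these data known. Members were named wherever called, the 9 transcription factors in every line comparison (those tested), and values in all 8 arrays were given for the largest called differences and for ATF4, DDIT3, XBP1 and HSPA5. Of each other list up to 3 called genes were eligible for naming, and not all are named. Promoters were searched for 3 motifs on both strands.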

Additional observations from a re-analysis of the deposited data

Results flagged for a closer look

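Among all 41 members, 4 had inhibitor arrays on one side of the untreated array in parental cells and on the other side in LR2 cells. The difference between the lines was not tested for the dim members and was not called for DNAJC3. DDIT3 differed by -0.43 with crizotinib and -0.23 with ceritinib in parental cells, and by 0.31 and 0.28 in LR2. A second DDIT3 probe set fell with crizotinib in LR2, with 5.05 untreated, 4.81 with crizotinib and 5.19 with ceritinib. VLDLR differed by -0.18 and -0.36 in parental cells and by 0.16 and 0.57 in LR2. ALDH1L2 differed by 0.27 and 0.16 in parental cells and by -0.20 and -0.02 in LR2. DNAJC3, a co-chaperone that inhibits PERK, differed by -0.07 and -0.10 in parental cells and by 0.08 and 0.17 in LR2. Its 2 other probe sets, above the floor, were not higher with both inhibitors in LR2. Their LR2 signals (untreated, crizotinib, ceritinib) were 7.39, 7.36 and 7.44, and 6.11, 5.86 and 6.03. The first 3 genes were below the floor in at least 7 of 8 arrays.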

How the results depend on the processing

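No analysis paired by replicate number was possible because the labels give no replicate numbers and each condition had 1 array, so arrays could be matched only by agent. No sign of a called member reversed under any alternative run. Leaving out each array in turn gave 2 to 9 called members for LR2 against parental cells, 2 to 9 for LR3 against parental cells, 1 to 10 for LR3 against LR2, 0 to 10 for crizotinib and 0 to 6 for ceritinib against crizotinib, and 0 for ceritinib, the responses per line and their differences. With no agent term 3, 4 and 3 members were called for LR2, LR3 and LR3 against LR2. The differences within pairs of arrays matched by agent called 4, 0 and 2. LR3 against LR2 had 8 called members with quantile normalization, 8 with centred arrays and 9 with an eBayes trend, against 5. Probe set choice and the filters on low values kept each count of called members within 1.5 times. These member counts are given without the share of all genes called in the same run. Over all genes, crizotinib calls were 396, and 151 with no filter, 797 with a trend, 258 with quantile normalization and 535 with parental and LR2 arrays only, and the cause was not tested. A response whose array of untreated cells was left out could not be fitted. Signal near the floor limits ATF3, SESN2 and the 5 dim members.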

Other observations

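Probe sets of a gene did not always go the same way. SHMT2 had 3 other probe sets above the floor, and all 3 had the opposite sign to the brightest for LR3 against parental cells and for crizotinib, where the brightest differed by 0.03 ± 0.08 and 0.01 ± 0.08. HSPA5 had 2 of 5 others of the opposite sign for LR3 against parental cells, where it was not called. DNAJB9 had 1 of 2 others of the opposite sign for LR2 against parental cells and for LR3 against LR2. PSAT1 had 7 others, all of the same sign as the brightest in each line comparison and with crizotinib, but 6 of the 7 had the opposite sign for the response in LR2, where the brightest was at 0.02, and 2 of 7 in LR3.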
